A study of Saccharomyces cerevisiae with 40 samples.

Results

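The genes that give yeast cells their mating identity were followed through 40 RNA-seq libraries of Saccharomyces cerevisiae. They are 10 of the 6661 transcripts in the files, taken by gene name and systematic name: the pheromone genes MFA1, MFA2, MF(ALPHA)1 and MF(ALPHA)2, the pheromone receptor genes STE2 and STE3, STE6, BAR1, AGA2 and HO. All 10 were found in the files. The libraries form 8 groups of 5: strain GSY147 (S288c background, a laboratory strain) or RM11 (a vineyard strain), in minimal medium (YM) or in YM with tryptophan, tyrosine and phenylalanine (WYF), untreated or with Cr41. Cr41 is Credit41, a commercial glyphosate herbicide. It was given for 90 min at a dose written as 0.25% glyphosate in the labels and as 0.25% of the product in the study's methods. The study describes both strains as haploid, and the labels give neither their mating type nor their HO genotype. All YM libraries come from lane 2 and all WYF libraries from lane 3, and the effects of medium and lane cannot be told apart.

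Haploid budding yeast comes in the mating types a and alpha. An a cell makes a-factor and carries the receptor for alpha-factor, and an alpha cell does the reverse. In alpha cells the protein alpha2, together with Mcm1, keeps the a-specific genes off, while alpha1 turns the alpha-specific genes on. Pheromone bound to its receptor acts through a G protein and a MAP kinase cascade on the transcription factor Ste12, which binds pheromone response elements and raises mating genes. HO encodes the endonuclease that starts mating-type switching, and it is transcribed in late G1 in mother cells by the factor SBF (Swi4 and Swi6) after Swi5 has acted on its long promoter.

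Each library held 4224356 to 7866046 estimated counts in all (median 5729241). Reads of both strains had been assigned to S288c transcripts, so a strain difference in RNA and in how well RM11 sequence matches S288c cannot be told apart. No source says that the replicates were separate cultures, and p-values measure the spread between these libraries. Some RM11 libraries stood apart. Among 45 transcripts with counts essentially in GSY147 alone, a set defined after the values were seen, RM11 WYF untreated replicates 1 to 5 held 236, 806, 42, 60 and 1 counts. The other 15 RM11 libraries held 0 to 9. The set was chosen for few counts in those 15 libraries, so their low counts follow from the choice. In RM11 YM Cr41, replicate 5 was the lowest of its group for MFA2, STE2, STE6, BAR1 and AGA2. The factor that scales its library size (TMM) was 1.22, against 1.03 to 1.04 in replicates 1 to 4. A larger factor lowers every normalized level (CPM) of a library. Values without these libraries stand beside the results that rest on them.

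The a-factor genes are shown first, because MFA1 and MFA2 encode nearly the same peptide and only MFA1 was called between the strains. Both encode the precursor of the same kind of farnesylated peptide. MFA1 (YDR461W, chrIV:1385176-1385286, + strand of R64) and MFA2 (YNL145W, chrXIV:352414-352530, +) have the following reading frames in the RefSeq R64 genome, with the 12 codons of the mature peptide in capitals.
MFA1: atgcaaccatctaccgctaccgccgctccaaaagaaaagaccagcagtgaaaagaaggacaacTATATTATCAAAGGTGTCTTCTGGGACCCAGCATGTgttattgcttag
MFA2: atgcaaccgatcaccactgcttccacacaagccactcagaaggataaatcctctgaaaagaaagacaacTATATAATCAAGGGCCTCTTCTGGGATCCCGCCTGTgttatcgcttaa
The frames are identical at 72.5% of 120 aligned columns, and 7 of the 36 mature bases and 1 of the mature residues differ. Their longest similar stretch was 63 bases at 85.7% identity. The frames are 111 and 117 bases long, and the effective lengths the authors' program used were 21 to 26 bases for MFA1 and 23 to 28 for MFA2. Their TPM therefore depend on very short corrected lengths, and comparisons between libraries use counts.

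The alpha2 site core CATGTAA, read on both strands from 250 bases before to 50 bases after the start codon, was present in 5 of the 10 genes, all of them a-specific, and in 3.67% of 5974 promoters of the same length. The 31 bases that begin with it, oriented so that the core comes first in capitals, are shown for these genes because alpha2 and Mcm1 act at such sites.
MFA1 (chrIV:1384942-1384972, -): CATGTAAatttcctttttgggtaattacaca
MFA2 (chrXIV:352163-352193, -): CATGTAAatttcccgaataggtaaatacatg
STE2 (chrVI:82351-82381, +): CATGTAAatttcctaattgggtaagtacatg
STE6 (chrXI:46477-46507, -): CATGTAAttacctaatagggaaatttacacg
BAR1 (chrIX:322077-322107, -): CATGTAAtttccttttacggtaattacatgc
The pheromone response element TGAAACA was found in the same windows of MFA2, MF(ALPHA)2, STE2, STE6, BAR1 and AGA2, 6 of 10 genes, against 7.48% of all promoters. It was not among the letters of the MFA1 window. These are matches of letters and not measured binding.

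HO (YDL227C, chrIV:46271-48031, -) has a different upstream region. The SBF site CACGAAA occurred 8 times on either strand in the 1400 bases before its start codon, between 249 and 860 bases away, and HO was the only 1 of 5969 genes with as many (0.0168%, median 0). This region was chosen after the HO values were seen. A stretch of 300 bases holding 5 copies, in capitals, runs from 875 to 576 bases before the start codon.
HO (chrIV:48607-48906, -): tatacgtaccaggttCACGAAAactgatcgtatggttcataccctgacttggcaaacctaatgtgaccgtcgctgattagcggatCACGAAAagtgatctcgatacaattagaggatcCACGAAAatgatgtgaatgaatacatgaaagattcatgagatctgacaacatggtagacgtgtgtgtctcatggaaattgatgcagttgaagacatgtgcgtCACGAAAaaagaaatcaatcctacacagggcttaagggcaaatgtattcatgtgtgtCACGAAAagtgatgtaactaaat

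In untreated cells both strains carried the RNA of a cells. The 6 a-specific members ranged over levels of 56.5 TPM for BAR1 to 8094 TPM for MFA2 in GSY147 in YM (group means, n = 5). The same genes ranged from 49.9 TPM for BAR1 to 7341 TPM for MFA2 in RM11. The alpha-specific members lay at 2.44 TPM or less in GSY147 and at 1.79 TPM or less in RM11. MF(ALPHA)1 (YPL187W, chrXVI:193648-194145, +), the main alpha-factor gene, had 0 to 13 counts in each of the 40 libraries and 150 in all. MF(ALPHA)2 (YGL089C, chrVII:344791-345153, -), the minor alpha-factor gene, had 31 counts in all and 0 in 23 of 40 libraries. The alpha-factor genes share stretches of 48 to 128 bases at 79.4% to 89.6% identity, so the few reads of one could have been assigned to the other.

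**Figure D1:**
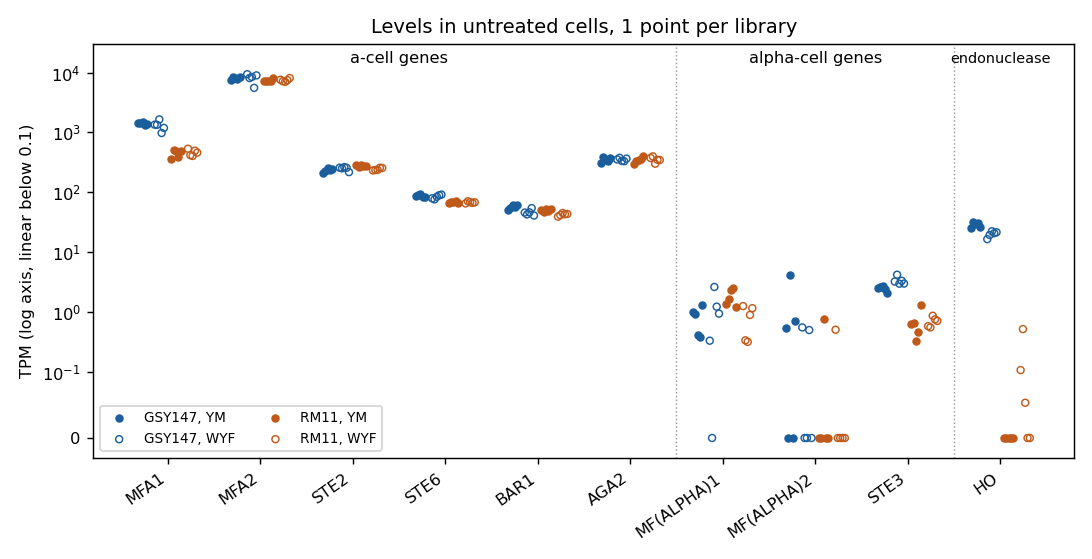
Level (TPM, log axis that is linear below 0.1) of the 10 genes in untreated cells, with 1 point per library, blue for GSY147, orange for RM11, filled for YM and open for WYF. The a-cell genes lie far above the alpha-cell genes in both strains, MFA1 and STE3 are lower in RM11, and HO is at 0 in 7 of the 10 untreated RM11 libraries.

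A wider marker list gave the same order of summed levels. It adds only the a-specific gene ASG7 to the a-cell members and SAG1 to the alpha-cell members, so it is not independent of them. Over all 40 libraries the summed level of 7 a-cell markers lay between 5340 and 14798 TPM, and that of 4 alpha-cell markers between 14.99 and 63.6 TPM. In GSY147 YM untreated, MFA2 and MFA1 made up most of the a-cell sum, with means of 8094 and 1413 TPM on very short corrected lengths. AGA2, STE2, STE6 and BAR1 had means of 354, 233, 86.9 and 56.5 TPM there. The alpha-cell sum had a median of 30.4 TPM in that group. Most alpha-cell marker RNA came from SAG1, the alpha-agglutinin gene, with 187 to 865 counts per library. Summed levels of 10 genes of haploid cells lay between 336 and 487 TPM, and of 5 genes of cells entering meiosis between 9.06 and 54.5 TPM. The a1 gene read from HMRA1 had 118 to 466 counts per library, and HMLALPHA1, the alpha1 gene, had 0 to 3. In every group of both strains the summed a-type RNA was thus far above the summed alpha-type RNA. In these bulk libraries a smaller share of cells with a transcript and less of it per cell cannot be told apart.

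In untreated YM cells MFA1, HO and STE3 were higher in GSY147. Of the 10 genes 8 passed the filter on low counts, and HO and STE3 did so only through the GSY147 libraries. They had to differ, so their values between the strains are descriptions with no test. Calls needed a Benjamini-Hochberg adjusted p below 0.05 in edgeR's quasi-likelihood test together with a log2 change of 1 or more in either direction, and 1 of the other 6 genes, MFA1, was called, as were 15.1% of the 5608 transcripts tested. MF(ALPHA)1 and MF(ALPHA)2 were below the filter in every comparison. In WYF MFA1 was again the 1 gene called of these 6, against 10.8% of 5604 transcripts.

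MFA1 was the a-factor gene that set the strains apart. Its normalized level was 53.7, 52.1, 56.2, 49.4 and 49.1 CPM in GSY147 and 15.7, 20.8, 20.3, 16.2 and 20.2 CPM in RM11 in YM. Every GSY147 library was above every RM11 library, by 2.78-fold (log2 1.48, SE 0.09, edgeR adjusted p = 9.6e-09). In WYF the GSY147 libraries gave 51.2, 51.7, 58.6, 33.5 and 43.6 CPM, and the RM11 libraries 24.7, 18.3, 17.98, 22.1 and 20.8 CPM. The groups again did not overlap, with GSY147 2.28-fold higher (log2 1.19, SE 0.15, edgeR adjusted p = 2.3e-05). With RM11 WYF untreated replicates 3 to 5 only, the log2 difference was 1.22 (edgeR adjusted p = 0.00024).

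MFA2, the more abundant a-factor RNA, did not differ between the strains beyond the spread of the libraries. In YM it lay at 307.6, 339, 328, 318 and 333 CPM in GSY147 and at 324, 326, 329, 328 and 360 CPM in RM11. These ranges overlapped, and the difference was log2 -0.05 (SE 0.05, edgeR adjusted p = 0.40). In WYF it was log2 -0.17 (SE 0.13, edgeR adjusted p = 0.28). On the log2(TPM + 1) scale the YM difference turned to 0.14 (limma adjusted p = 0.029), on a scale that moved the median of all transcripts to 0.10. Per length, the mean MFA2 level was 8094 TPM against 1413 TPM for MFA1 in GSY147, and 7341 TPM against 442 TPM in RM11.

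The receptor genes lay in opposite directions in YM. STE2 (YFL026W, chrVI:82580-83875, +), the alpha-factor receptor of a cells, was at 366, 386, 427, 409 and 435 CPM in GSY147 and 526, 470, 524, 490 and 484 CPM in RM11 in YM. All GSY147 libraries were below all RM11 libraries, at log2 -0.31 (SE 0.06, edgeR adjusted p = 0.00029), short of the fold threshold. In WYF the difference was log2 -0.12 (edgeR adjusted p = 0.17). STE3 (YKL178C, chrXI:113215-114627, -), the a-factor receptor of alpha cells, gave 33, 35, 27, 27 and 21 counts in GSY147 and 8, 10, 3, 7 and 14 counts in RM11 in YM. It was scarce in both strains and higher in every GSY147 library, by 3.42-fold (log2 1.77, SE 0.27). In WYF it was 4.20-fold higher (log2 2.07, SE 0.19), and log2 1.91 with RM11 WYF untreated replicates 3 to 5 only. Over the whole series GSY147 libraries held 21 to 52 STE3 counts and RM11 libraries 3 to 14.

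Of STE6, BAR1 and AGA2, STE6 passed the adjusted p between untreated strains. STE6 (YKL209C, chrXI:42423-46295, -), the exporter of a-factor, was at 530, 524, 528, 496 and 515 CPM in GSY147 and 419, 419, 433, 439 and 419 CPM in RM11. GSY147 was higher in every library, by log2 0.27 (SE 0.04, edgeR adjusted p = 2.4e-05). In WYF it was log2 0.14 (edgeR adjusted p = 0.037), and this p rose above 0.05 in 11 of 17 alternative fits, among them that with RM11 WYF untreated replicates 3 to 5 only (edgeR adjusted p = 0.12). BAR1 (YIL015W, chrIX:322342-324105, +), the secreted protease that degrades alpha-factor, differed by log2 0.06 in YM and -0.06 in WYF (edgeR adjusted p = 0.39 and 0.42). AGA2 (YGL032C, chrVII:436570-436833, -), the binding subunit of a-agglutinin, differed by log2 -0.11 and -0.20 (edgeR adjusted p = 0.27 and 0.076). Of the 6 genes other than HO and STE3, 3 passed the adjusted p at any fold in YM, against 71.6% of all transcripts tested, and in these 3 the groups did not overlap, as in 58.6% of all transcripts. In WYF 2 of the 6 passed it, against 54.1%.

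HO separated the strains most. In untreated YM the 5 GSY147 libraries held 452, 580, 413, 481 and 364 counts and the 5 RM11 libraries held 0 each. Against a floor of 3 counts over the RM11 group, HO was at least 787-fold higher in GSY147. The HO genotype of RM11 is not given, so low transcription and an altered or missing gene cannot be told apart in the strain ratios of HO. In WYF the GSY147 libraries held 289, 214, 296, 386 and 260 counts and the RM11 libraries 2, 9, 1, 0 and 0. The ratio of the normalized levels there was 133 (95% Poisson interval of the RM11 count 76.3 to 258, which covers counting error only). The 12 RM11 counts lay in replicates 1 to 3, and in replicates 1 and 2 they moved with the counts on GSY147-only transcripts. HO stood at 0.603%, 2.88% and 0.291% of its GSY147 level in those 3 libraries, and the GSY147-only transcripts at 0.511%, 1.85% and 0.0880%. With replicates 3 to 5 only, the ratio was 961 (173 to 37968, from 1 RM11 count). Whether these reads came from GSY147 RNA was not tested.

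Across the 8 groups HO fell with Cr41 in GSY147, and more in YM than in WYF. It was the only one of the 8 tested genes to be called for Cr41 in GSY147 in either medium, against 19.9% of 5716 transcripts in YM and 8.35% of 5581 in WYF. The normalized level in YM was 67.6, 81.7, 75.3, 81.1 and 70.6 CPM untreated and 7.13, 6.51, 5.43, 4.06 and 3.57 CPM with Cr41. That is 13.8-fold lower (log2 -3.78, SE 0.17, edgeR adjusted p = 2e-09), with the lowest untreated library far above the highest treated one. In WYF it was 43.3, 50.03, 55.7, 48.7 and 55.1 CPM untreated and 12.5, 12.97, 17.2, 11.2 and 14.7 CPM with Cr41. The groups did not overlap there either, at 3.68-fold lower (log2 -1.88, SE 0.12, edgeR adjusted p = 3e-08). The interaction of medium and Cr41 was called, at log2 -1.90 (SE 0.20, edgeR adjusted p = 1.5e-07), so the fall in YM was larger than in WYF. 9% of transcripts were called for this interaction.

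HO was also lower in untreated WYF than in untreated YM cells of GSY147, by log2 -0.58 (SE 0.09, edgeR adjusted p = 0.00033), with no overlap of the groups and short of the fold threshold. Group means of HO were thus ordered 75.3, 50.6, 13.7 and 5.34 CPM for GSY147 YM untreated, WYF untreated, WYF Cr41 and YM Cr41, and each neighbouring pair was separate. RM11 held 1 HO count in all 5 YM Cr41 libraries and 0 in all 5 WYF Cr41 libraries. The strain ratio with Cr41 in YM was 168 (30.2 to 6638, from that 1 count). In WYF GSY147 was at least 126-fold higher against a floor of 3 counts over the RM11 group. With so few HO counts in RM11, a treatment effect there could not be assessed.

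**Figure D2:**
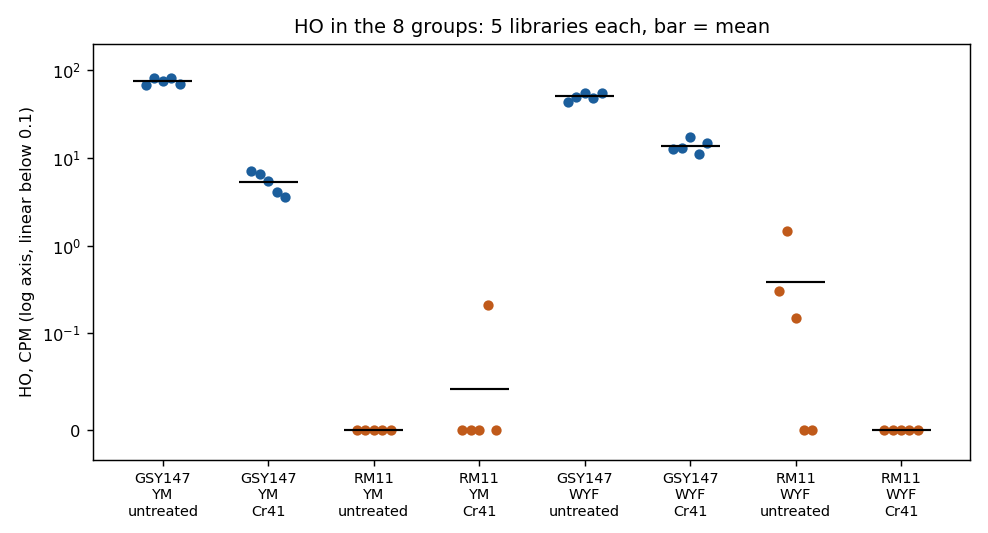
Normalized level of HO (CPM, log axis that is linear below 0.1) in the 8 groups, with 1 point per library and a bar at the mean. The 4 GSY147 groups do not overlap and run from a mean of 75.3 CPM down to 5.34 CPM, while 16 of the 20 RM11 libraries are at 0.

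The a-specific genes rose with Cr41 in GSY147 in YM, by less than HO fell. All 6, and STE3, passed the adjusted p in the upward direction with no overlap between treated and untreated libraries. None reached the fold threshold. Of all transcripts, 33% passed the adjusted p in that direction and 24.9% were higher without overlap. The fold changes ran from log2 0.32 for STE2 to 0.94 for AGA2. On the log2(TPM + 1) scale, where the median of all transcripts moved to -0.14, 5 of the 7 still passed. Some markers of other cell types were also higher there. The summed level of the alpha-cell markers went from 26.2 to 37.9 TPM untreated to 32.1 to 63.6 TPM, ranges that overlap, with SAG1 at log2 0.71 (edgeR adjusted p = 0.00025). That of the 5 meiosis markers went from 25.1 to 28.3 TPM to 37.1 to 54.5 TPM, and 2 of the 4 tested were called, NDT80 (log2 1.18) and SPO11 (1.97). Between the untreated GSY147 groups 3 meiosis markers passed the filter. The 4 may therefore include a marker that passed it only through the treated libraries, and its rise is a description. In GSY147 WYF the alpha-cell sum went from 28.1 to 30.7 TPM to 31.8 to 36.8 TPM. The meiosis sum went from 26.1 to 29.7 TPM to 34.4 to 40.4 TPM there. Neither pair of ranges overlapped, and no alpha-cell or meiosis marker tested was called in GSY147 WYF. In RM11 WYF 1 of the 3 meiosis markers tested was called higher. Between the untreated RM11 groups 2 passed the filter, so this call may also rest on the treated libraries passing it. No marker of either list was at 0 throughout a group, and their part in the a-specific rise was not tested.

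AGA2 gave the largest of these rises. In YM it was at 49.5, 62.2, 56.5, 52.8 and 59.1 CPM untreated and at 95.3, 104, 101, 127 and 107 CPM with Cr41. Every treated library was above every untreated one (log2 0.94, SE 0.08, edgeR adjusted p = 6.8e-07). STE6 came next, at 764, 811, 823, 912 and 814 CPM with Cr41 against the untreated 496 to 530 CPM (log2 0.68, SE 0.04, edgeR adjusted p = 6.7e-08). BAR1 was at 190, 196, 195, 208 and 211 CPM with Cr41 against 135, 141, 153, 150 and 161 CPM untreated, also without overlap (log2 0.44, SE 0.06, edgeR adjusted p = 3.5e-05).

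Both a-factor genes and the alpha-factor receptor followed. MFA2 was at 430, 399, 393, 555 and 570 CPM with Cr41, all above the untreated 307.6 to 339 CPM (log2 0.53, SE 0.10, edgeR adjusted p = 0.00039). MFA1 was at 57.5, 65.7, 66.9, 91.8 and 72.9 CPM, above an untreated high of 56.2 CPM (log2 0.45, SE 0.10, edgeR adjusted p = 0.0013). STE2 was at 490, 484, 437, 550 and 560 CPM with Cr41 against an untreated high of 435 CPM (log2 0.32, SE 0.07, edgeR adjusted p = 0.0018). The ranges of STE2 and MFA1 nearly touched. STE3, whose counts were few, had log2 0.55 (SE 0.22, edgeR adjusted p = 0.039), and this p rose above 0.05 in 10 of 16 alternative fits.

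In WYF fewer a-specific genes moved in GSY147. MFA2 rose from 373, 326, 327, 207 and 345 CPM to 506, 529, 485, 519 and 488 CPM (log2 0.68, SE 0.12, edgeR adjusted p = 0.00047). STE6 rose from 475, 448, 483, 480 and 526 CPM to 708, 647, 616, 654 and 648 CPM (log2 0.44, SE 0.06, edgeR adjusted p = 4.2e-05). STE2 rose from 444, 431, 440, 410 and 362 CPM to 490, 492, 501, 553 and 510 CPM (log2 0.29, SE 0.07, edgeR adjusted p = 0.0029). For these 3 genes treated and untreated libraries did not overlap, as was so of 16.9% of all transcripts in the upward direction, and 22.7% passed the adjusted p upward. MFA1 (log2 0.16), AGA2 (0.10), BAR1 (-0.19) and STE3 (-0.19) had edgeR adjusted p of 0.32, 0.35, 0.11 and 0.41. The interaction of medium and Cr41 passed the adjusted p for AGA2 (log2 0.84, edgeR adjusted p = 1.3e-05), BAR1 (0.64, 0.00012), STE6 (0.25, 0.013) and STE3 (0.75, 0.038), each more positive in YM, as were 21.4% of all transcripts. The STE3 value lost its p in 14 of 26 alternative fits.

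**Figure D3:**
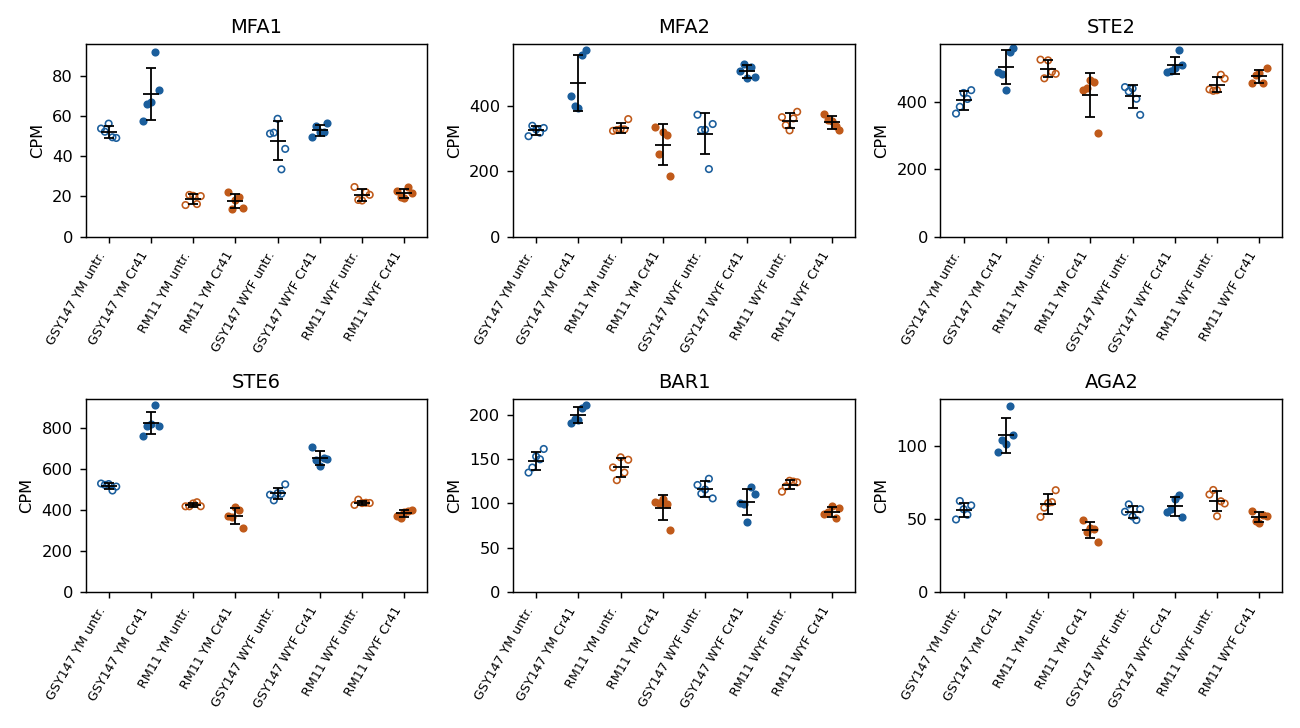
Normalized level (CPM, axes from 0) of the 6 a-specific genes in the 8 groups, with 1 point per library (open untreated, filled Cr41; blue GSY147, orange RM11) and the mean with 1 SD. AGA2, STE6 and BAR1 are highest in GSY147 YM Cr41, MFA1 is below 25 CPM in every RM11 library, and 1 RM11 YM Cr41 library is low in several panels.

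In RM11, BAR1 and AGA2 went down with Cr41. None of the 6 genes tested was called by edgeR, against 1.66% of 5496 transcripts in YM and 1.65% of 5469 in WYF. At an unadjusted p under 0.05 there were 4 in YM and 3 in WYF, and DESeq2 and limma also called 0. STE3 and HO were also below the filter there. BAR1 in YM went from 141, 126, 152, 135 and 149 CPM to 102, 100, 105, 98.9 and 69.97 CPM with Cr41, with no overlap (log2 -0.56, SE 0.10, edgeR adjusted p = 0.0016). In WYF it went from 113, 119, 126, 125 and 124 CPM to 88.0, 90.2, 97.3, 82.97 and 95.01 CPM, again without overlap (log2 -0.42, SE 0.06, edgeR adjusted p = 3.5e-05). BAR1 thus fell in RM11 in both media. In YM 2 of the 6 genes passed the adjusted p downward, against 7.28% of all transcripts, and in WYF 3 did, against 17.8%.

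AGA2 in RM11 fell in YM from 51.3, 57.6, 60.8, 61.4 and 69.5 CPM to 49.5, 41.2, 43.6, 42.9 and 34.1 CPM (log2 -0.51, SE 0.10, edgeR adjusted p = 0.0042). In WYF its groups overlapped, and the change was log2 -0.28 (SE 0.08, edgeR adjusted p = 0.011). With RM11 WYF untreated replicates 3 to 5 only, the AGA2 value in WYF was log2 -0.19 (edgeR adjusted p = 0.10). STE6 in WYF changed by log2 -0.18 (edgeR adjusted p = 0.0019), and MFA1, MFA2 and STE2 in WYF by log2 0.05, -0.02 and 0.08, none past the adjusted p. In YM, STE2 and STE6 had log2 -0.24 and -0.20 (edgeR adjusted p = 0.12 and 0.11) although treated and untreated libraries did not overlap. With BAR1 and AGA2 that makes 4 of 6 lower without overlap, against 7.33% of all transcripts. Without replicate 5 of RM11 YM Cr41 these were log2 -0.16 and -0.15 (edgeR adjusted p = 0.018 and 0.022), and BAR1 and AGA2 were log2 -0.47 and -0.44.

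**Figure D4:**
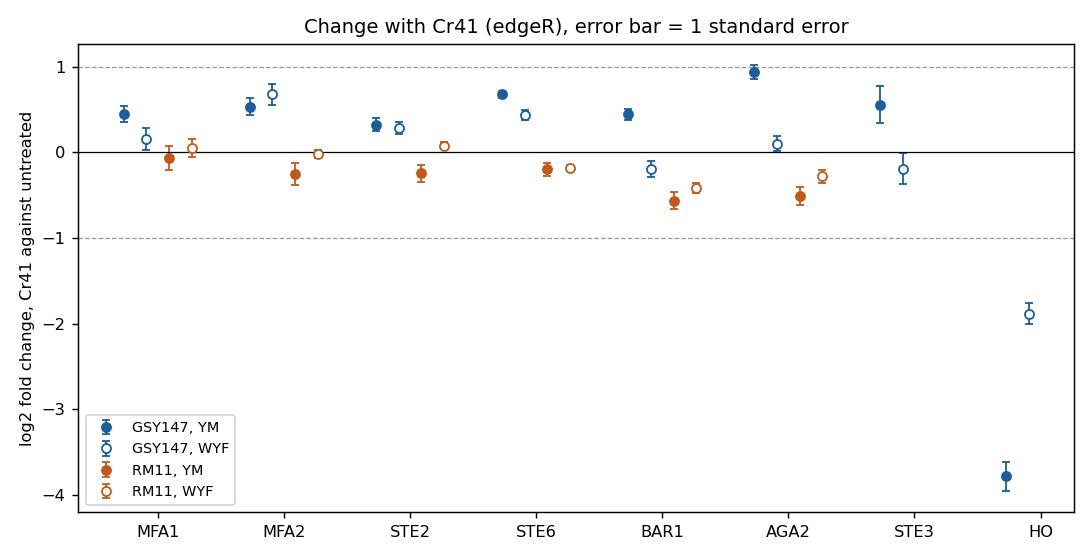
Change with Cr41 (log2 fold change, edgeR, error bar 1 SE) of the 8 genes that passed the filter in GSY147 and the 6 that passed in RM11, filled for YM and open for WYF, with dashed lines at the fold threshold. HO lies at -3.78 and -1.88, the a-specific genes lie above 0 in GSY147 YM, and BAR1 and AGA2 lie below 0 in RM11.

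The difference between the strains in their change with Cr41 was tested as an interaction. In YM AGA2 (log2 1.44, SE 0.14, edgeR adjusted p = 1.7e-08) and BAR1 (log2 1.001, SE 0.12, edgeR adjusted p = 6.5e-07) were called, 2 of the 6 genes other than HO and STE3, against 19.2% of 5795 transcripts. STE6 (log2 0.87), MFA2 (0.78), STE2 (0.56) and MFA1 (0.51) passed the adjusted p below the fold threshold, all more positive in GSY147, and 25.7% of all transcripts passed it in that direction. BAR1 sat at the threshold, and without replicate 5 of RM11 YM Cr41 its value was log2 0.94. Without that library AGA2 was 1.41, STE6 0.85, MFA2 0.70, STE2 0.50 and MFA1 0.48, all past the adjusted p. In WYF edgeR and DESeq2 called no member, against 7.55% of 5669 transcripts, with 4 at an unadjusted p under 0.05 and 1 called by limma. MFA2 (log2 0.71, edgeR adjusted p = 0.00046), STE6 (0.63, 1.1e-07), AGA2 (0.39, 0.013) and STE2 (0.22, 0.034) passed the adjusted p, as did 15% of all transcripts in that direction. Without RM11 WYF untreated replicates 1 and 2 the AGA2 value was 0.29 (edgeR adjusted p = 0.079), and the STE2 p rose above 0.05 in 7 of 27 alternative fits.

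With Cr41 in YM the strains differed in more of the members. Of the 6 genes other than HO and STE3, 4 were called higher in GSY147, against 13.3% of 5660 transcripts called higher: MFA1 (log2 1.995), AGA2 (1.34), STE6 (1.15) and BAR1 (1.08). STE3, as a description, was at log2 2.73. MFA2 had log2 0.74 and STE2 0.26 (edgeR adjusted p = 0.00074 and 0.048), and the latter p rose above 0.05 in 12 of 16 alternative fits. All 6 passed the adjusted p upward, against 34% of all transcripts. In Cr41-treated WYF cells MFA1 (log2 1.36) was called, against 7.78% of 5588 transcripts called higher, and the other 5 of these genes passed the adjusted p in the same direction, as did 37.2% of transcripts. STE3 was at log2 1.90 there. Without replicate 5 of RM11 YM Cr41, BAR1 in YM was log2 0.98 and no longer called, and MFA1, AGA2, STE6, MFA2, STE2 and STE3 were at 1.93, 1.27, 1.10, 0.62, 0.17 and 2.56.

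Between media, untreated cells differed in BAR1, HO and STE2, all below the fold threshold. EdgeR called no gene of 8 tested in GSY147 (4.07% of all transcripts were called) or of 6 tested in RM11 (1.89% were). At an unadjusted p under 0.05 there were 3 and 2, and DESeq2 and limma also called 0. In each strain 2 genes passed the adjusted p downward, against 20.6% of all transcripts in GSY147 and 13.2% in RM11. BAR1 was lower in WYF in both strains, by log2 -0.35 in GSY147 (SE 0.07, edgeR adjusted p = 0.0025) and -0.23 in RM11 (SE 0.06, edgeR adjusted p = 0.0083). With RM11 WYF untreated replicates 3 to 5 only, the RM11 value was log2 -0.18 (edgeR adjusted p = 0.083). STE2 in RM11 was lower in WYF by log2 -0.16 (edgeR adjusted p = 0.022), and log2 -0.12 (edgeR adjusted p = 0.16) with those 3 libraries. For the interaction of medium and Cr41 in RM11, edgeR passed none of the 6 members at the adjusted p and 1 at an unadjusted p under 0.05, and 0.739% of transcripts were called. STE2 had log2 -0.34 in that interaction (edgeR adjusted p = 0.054) and passed the adjusted p in 5 of 27 alternative fits. Without replicate 5 of RM11 YM Cr41, STE2 passed it at log2 -0.23 (edgeR adjusted p = 0.014). DESeq2 passed 1 member at the adjusted p, in the downward direction.

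Levels over the 8 groups spanned little for STE2, whose highest group mean was 1.26 times its lowest and whose groups overlapped with their neighbours in every step of the order. The span was 1.80 times for MFA2, 2.20 for BAR1, 2.22 for STE6, 2.53 for AGA2 and 3.996 for MFA1. For MFA1 all GSY147 groups (means 47.7 to 71.0 CPM) lay above all RM11 groups (17.8 to 21.6 CPM) with no overlap. Within GSY147, YM Cr41 was highest (SD 12.9 CPM), and its lowest library (57.5 CPM) was below the highest of WYF untreated (58.6 CPM).

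The alpha-factor gene MF(ALPHA)1 stayed at a few counts in all groups. GSY147 held 1, 0, 6, 4 and 2 counts in untreated WYF and 7, 13, 8, 6 and 4 counts with Cr41, where the ranges overlapped. The exact two-sided permutation p on the CPM was 0.0159, where 0.00794 is the smallest that 5 against 5 allow. It was 0.103 when adjusted over the 26 such tests made on members below the filter. In a fit of all transcripts with any count it was log2 1.73 (SE 0.52, edgeR adjusted p = 0.016). In YM the counts were 3, 3, 1, 1 and 3 untreated and 4, 1, 3, 2 and 0 with Cr41. RM11 untreated held 27 counts in YM and 12 in WYF, against 11 in GSY147 in YM, and GSY147 and RM11 held 38 and 15 in WYF with Cr41. For these 3 comparisons (RM11 between media, the strains in untreated YM and in Cr41-treated WYF) the exact permutation p was also 0.0159, and none of the 26 passed after adjustment. In the fit of all transcripts with any count, these 3 were at log2 -1.17, -1.25 and 1.53 (edgeR adjusted p = 0.097, 0.036 and 0.0033).

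The other genes of the pheromone pathway were read from a list of 67, of which 65 were in the files. With Cr41 in GSY147 in YM, 11 of the 61 tested were called, 18% against 19.9% of all transcripts: PRM5, ASG7, PRM10, FUS1, SIR1, FIG2, PRM3, AGA1, FUS2 and AFR1 higher and SWI4 lower. The share called is thus near the background. By direction, 31 passed the adjusted p upward and 18 downward, where 33% and 34.2% of all transcripts did, and the median was log2 0.39 beside -0.00 for all transcripts. Genes induced in mating and cell fusion made up most of the calls, with 8 of 14 tested called higher and a median of log2 1.11, where 11% of all transcripts were called higher. Between the untreated GSY147 groups 13 of these genes passed the filter on low counts. The 14 may therefore include a gene that passed it only through the treated libraries, and the rise of such a gene is a description.

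FUS1, a cell-fusion gene widely used to report pheromone signalling, had 134, 125, 118, 77 and 85 counts untreated and 279, 280, 278, 241 and 209 with Cr41 in GSY147 YM. Treated libraries were all higher (log2 1.45, SE 0.13, edgeR adjusted p = 8.7e-07). ASG7, an a-specific regulator of the signal, went from 71, 74, 65, 62 and 45 counts to 203, 183, 181, 182 and 191 counts (log2 1.78, SE 0.12, edgeR adjusted p = 7e-08). PRM5, pheromone-regulated and also raised by cell wall stress, went from 171, 187, 142, 153 and 114 counts to 732, 639, 846, 807 and 933 counts (log2 2.58, SE 0.13, edgeR adjusted p = 5.1e-09). AGA1, the anchor on which Aga2 is displayed, had log2 1.13 (SE 0.23, edgeR adjusted p = 0.00081). The core of the pathway moved less evenly: STE12 had log2 -0.04 (edgeR adjusted p = 0.72), the G-beta gene STE4 -0.81 (3.7e-07), the G-alpha gene GPA1 0.43, the RGS gene SST2 0.48 and the arrest gene FAR1 -0.29 (0.0083).

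In WYF the same treatment gave 2 calls of 60 in GSY147 (8.35% of all transcripts were called), SWI5 and DIG2, both lower, with a list median of log2 -0.06. FUS1 had log2 0.12 (edgeR adjusted p = 0.50), ASG7 0.00 and PRM5 0.44. In RM11, none of 59 genes in YM and none of 58 in WYF was called by edgeR, DESeq2 or limma (1.66% and 1.65% of all transcripts were by edgeR). At an unadjusted p under 0.05 there were 15 and 26. The adjusted p was passed by 4 upward and 5 downward in YM, and by 6 and 14 in WYF. Of all transcripts, 7.28% in YM and 17.8% in WYF passed it downward. FUS1 in RM11 had log2 -0.34 in YM and -0.56 in WYF (edgeR adjusted p = 0.003), and ASG7 -0.41 and -0.43 (edgeR adjusted p = 0.021 and 0.0029). The interaction of strain and Cr41 in YM was called for 14 of 61 genes, 12 of them more positive in GSY147, where 19.2% of all transcripts were called and 11% called more positive, with PRM2 at log2 2.45 and ASG7 at 2.18. As 59 genes passed the filter in RM11 YM, some of the 61 may have passed it only through GSY147 libraries. The values of such genes are descriptions.

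**Figure D5:**
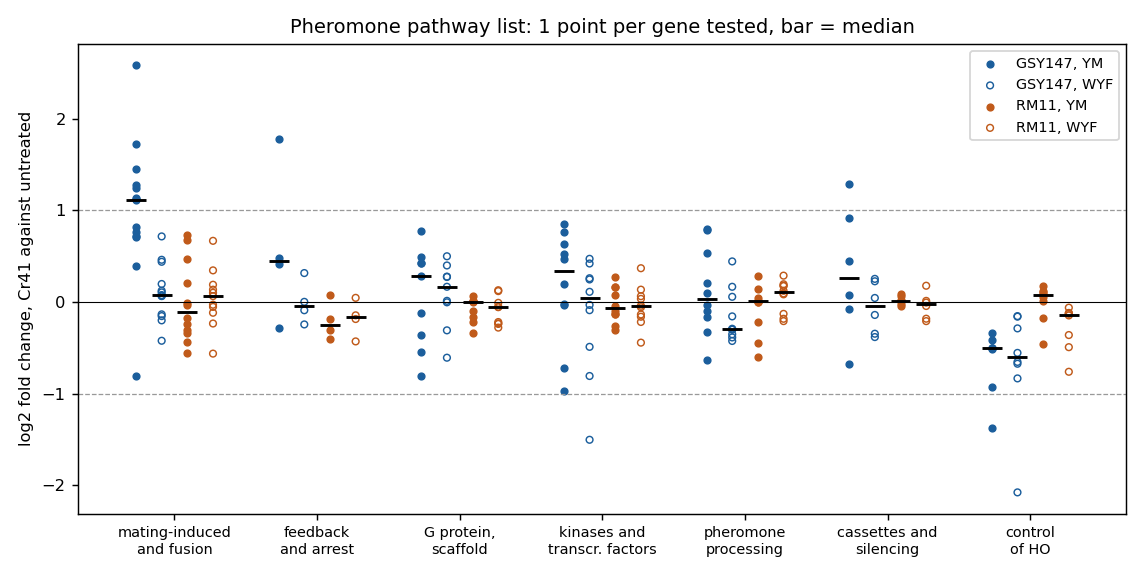
Change with Cr41 (log2 fold change) of each tested gene of the pheromone pathway list, grouped by role, with 1 point per gene and a bar at the median for each strain and medium. In GSY147 YM the genes induced in mating and fusion have a median of 1.11, and the genes that control HO lie below 0 in both GSY147 sets.

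The regulators of HO were in the same list. SWI4, which encodes the DNA-binding subunit of SBF, was at 198, 194, 184, 221 and 172 CPM untreated and 70.7, 72.6, 81.3, 69.8 and 76.5 CPM with Cr41 in GSY147 YM. It fell without overlap (log2 -1.37, SE 0.08, edgeR adjusted p = 2e-08), and so did its partner SWI6 (log2 -0.93). In WYF SWI4 went from 136, 157, 177, 174 and 145 CPM to 107, 107, 104, 92.7 and 90.4 CPM (log2 -0.66, SE 0.09, edgeR adjusted p = 2.9e-05). SWI5, the zinc-finger activator of HO, fell by 0.50 on the log2 scale in YM and by 2.08 in WYF, where its counts went from 730, 477, 597, 868 and 529 to 178, 208, 77, 96 and 90. ASH1, the repressor of HO in daughter cells, had log2 -0.50 in YM. In RM11, SWI4 had log2 0.12 in YM and -0.13 in WYF, neither past the adjusted p, and SWI5 had -0.46 and -0.76 (edgeR adjusted p = 0.0015 and 1.6e-07). The part of these regulators in the fall of HO was not tested.

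Untreated strains also differed in the pathway list, in 5 of 60 genes in each medium (8.33%, against 15.1% and 10.8% of all transcripts). Between the untreated RM11 groups 58 list genes passed the filter on low counts. Some of the 60 thus passed it only through GSY147 libraries, and the strain values of such genes are descriptions. PRM5 was higher in GSY147 by log2 3.82 in YM and 4.403 in WYF, and PRM2 by 1.57 and 1.9996. KEX1, a carboxypeptidase that trims alpha-factor, was higher by 1.52 in YM. ASG7 went the other way, with log2 -1.17 in YM and -1.02 in WYF. SAG1, the alpha-agglutinin gene, was higher in GSY147 by log2 0.57 in YM, in the same direction as STE3.

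Some transcripts followed the members closely across libraries of one strain. Over the 20 GSY147 libraries and 5373 transcripts, with Pearson's r of log2(CPM + 1), HO was most like MSH6 (r = 0.993), PRI2 (0.991) and PDS5 (0.991). AGA2 was most like ILV6 (0.974) and STE6 most like INM1 (0.977). BAR1 was most like RRP43 (0.953), MFA2 most like SUS1 (0.941) and MFA1 most like YDR365W-B (0.901). HO and STE6 had r = -0.942. STE2, read in the 20 RM11 libraries, was most like YCF1 (0.931). These libraries share groups and lanes, and the values are a description with no test.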

How the data were processed

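RNA was extracted with hot phenol, and paired-end libraries were made with a ScriptSeq Yeast kit. The authors estimated each transcript's abundance with Salmon 0.13.1 against an S288c transcriptome index, whose release is not given in the sources used here. The deposited expected counts are those estimates, not normalized, and were rounded to whole numbers (472 to 652 values per library were not whole). The deposited TPM were computed by the authors' Salmon run from those counts and the effective lengths. Of 6661 transcripts, 5993 matched the RefSeq R64 annotation by systematic name.

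Each comparison was fitted on the libraries of its own groups over all transcripts passing filterByExpr (minimum count 10), with TMM scaling and the quasi-likelihood test of edgeR 4.0.16 in R 4.3.3, and p-values were adjusted over all transcripts tested. There were 14 comparisons, 4 of them interactions. Members below the filter were compared by exact permutation tests on CPM. CPM are TMM-scaled counts, on a scale common to the 40 libraries. Intervals are 95% Poisson intervals. Alternatives were DESeq2 1.42.0, RLE normalization, limma 3.58.1 on log2(TPM + 1), no filter, effective lengths as offsets, the replicate block, calls without the fold threshold and leaving out each replicate. The fits with RM11 WYF untreated replicates 3 to 5 only were added after seeing the data. The scripts were tested on simulated data.

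The members, the pathway list and the marker lists were chosen with earlier results of these data known. Named from the lists were a fixed set (such as ASG7, SAG1, AGA1, FUS1, SWI4 and SWI5) and, per comparison, the 3 called genes with the largest change in each direction. SWI6 and the other called genes were named after their values were seen. Genes of like pattern are the transcripts with the highest correlation in the strain where the member is higher, among those with a mean of at least 5 CPM. Promoter windows run from 250 bases before to 50 after the start codon and were cut from the R64 genome with its annotation. MATALPHA1 and MATALPHA2 were not analysed here.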

Additional observations from a re-analysis of the deposited data

Results flagged for a closer look

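Single libraries stood apart from the other 4 of their group in 7 of the 70 groups with at least 10 counts, by the ratio of the gap to the group's range, and chance gives about 1 in 20 groups. MFA2 was at 360 CPM in RM11 YM untreated replicate 5, with the others at 324 to 329 CPM. It was at 207 CPM in GSY147 WYF untreated replicate 4, with the others at 326 to 373 CPM. STE2 and BAR1 were at 307 and 69.97 CPM in RM11 YM Cr41 replicate 5, where the others lay at 437 to 465 and 98.9 to 105 CPM. STE3 was at 7.95 CPM in GSY147 WYF untreated replicate 2 (others 5.46 to 6.14 CPM), a gene with few counts. MF(ALPHA)2 was at 1.6 CPM in GSY147 YM Cr41 replicate 1 (others 0 to 0.372 CPM). HO was at 1.46 CPM in RM11 WYF untreated replicate 2 (others 0 to 0.305 CPM), the library with the most counts on transcripts seen in GSY147 alone.

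The strains differed in their change with Cr41 in YM for AGA2 (interaction log2 1.44) and BAR1 (1.001), and the media differed in the change of HO with Cr41 in GSY147 (log2 -1.90). The BAR1 value lay at the fold threshold.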

How the results depend on the processing

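Across the alternatives 2448 values kept their direction and side of the threshold, 43 passed it in the alternative alone, 5 fell below it, 34 counts or values moved and 20 changed sign, all of these at small differences. Counts of members here include HO and STE3, which passed the filter between strains only through GSY147. Without the fold threshold the members called became 5 for the untreated strains in YM, 8 for the Cr41-treated strains in WYF, 8 and 4 for Cr41 in GSY147 YM and WYF, 2 and 3 for Cr41 in RM11 YM and WYF, 2 and 2 for medium in GSY147 and RM11, 7 and 4 for the strain by Cr41 interaction in YM and WYF, and 5 for the medium by Cr41 interaction in GSY147. With all transcripts of any count, 2 were called for Cr41 in GSY147 WYF, and with limma 1 for the strain by Cr41 interaction in WYF.

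With limma on log2(TPM + 1) these signs turned: between untreated strains MFA2 (0.14 in YM, 0.095 in WYF), AGA2 (0.039 in YM), STE2 (0.032 in WYF) and BAR1 (0.11 in WYF), MFA1 for Cr41 in RM11 WYF (-0.0069), STE6 for medium in RM11 (-0.0049), and the medium by Cr41 interaction of STE2 in GSY147 (-0.031) and STE6 in RM11 (0.032). With effective lengths as offsets MFA2 between untreated strains in YM was 0.032 and MFA1 for Cr41 in RM11 WYF -0.0020. With 1 library left out at a time, values that turned ran from -0.17 to 0.010 for MFA1 with Cr41 in RM11 YM, -0.00063 to 0.12 for MFA1 with Cr41 in RM11 WYF, -0.049 to 0.0079 for MFA2 with Cr41 in RM11 WYF, -0.11 to 0.077 for MFA2 by medium in GSY147, -0.020 to 0.092 for AGA2 by medium in RM11, and -0.067 to 0.042 for STE6 in the medium by Cr41 interaction in RM11 (highest without RM11 YM Cr41 replicate 5). With RM11 WYF untreated replicates 3 to 5 only, AGA2 for medium in RM11 was -0.061. The causes were not tested.

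With each library left out the members called stayed at 5 to 6 for the Cr41-treated strains in YM and 2 to 4 for the strain by Cr41 interaction in YM, and the other counts did not change. BAR1 fell short of the fold threshold in the strain by Cr41 interaction in YM with limma (0.80), with any count (0.98) and without RM11 YM Cr41 replicate 5 (0.94). The replicate number as a block gave 2 members called for the strain by Cr41 interaction in YM in place of 3 and the same counts elsewhere. Same-numbered libraries had mean correlations of deviations of -0.0973 to 0.0584, so no pairing by number was seen in the means. Single same-numbered pairs reached 0.456 (GSY147 YM, Cr41 and untreated), and the means cannot exclude a pairing. Few counts limit STE3, MF(ALPHA)1, MF(ALPHA)2 and, in RM11, HO.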
